A study of Mus musculus with 2 samples.

Results

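The G1 cell cycle regulators examined here are 10 genes that control the passage of a cell from G1 into S phase. They are taken by name, in a choice made with earlier results of these data known: the D-type cyclins Ccnd1, Ccnd2 and Ccnd3, the kinases Cdk4 and Cdk6, the Cip/Kip inhibitors Cdkn1a and Cdkn1b, the Ink4 locus genes Cdkn2a and Cdkn2b, and Trp53. All 10 were among the 27999 genes listed for each library. Whole lungs of female FVB/NJ mice injected through the tail vein with Met-1 mouse mammary carcinoma cells at 10 weeks of age were profiled by droplet-based scRNA-seq (10x Genomics). The low metastatic burden library came from 1 mouse in week 1 after injection, and the high metastatic burden library from 1 mouse in week 3, with burden verified by MRI. No batch label told the libraries apart. Met-1 is a single transplanted line, the cells reached the lung directly from the blood, and there was no lung without injected cells, so burden, time after injection, mouse and library cannot be told apart. With 1 library per group no test was made and no p-value is given, and every interval below is an exact 95% interval that covers counting error only.

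D cyclins are made in response to mitogens and activate Cdk4 and Cdk6, which phosphorylate the retinoblastoma protein and so release E2F transcription factors. Ink4 proteins bind Cdk4 and Cdk6 and block them, whereas the Cip/Kip proteins p21 (Cdkn1a) and p27 (Cdkn1b) act mainly on Cdk2 complexes. Cdkn2a encodes both the Ink4 protein p16 and, from another first exon, Arf, which restrains Mdm2 and thereby stabilizes p53, the product of Trp53. Cyclin D1 is a well-known driver of mammary carcinoma.

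After the study's own filters, 2473 of 2668 low-burden cells and 3033 of 3121 high-burden cells were kept, with a median of 4073 and 13998 UMIs per cell, respectively, and 11 cell barcodes occurred in both libraries. Cells were placed in 18 classes by marker gates that used none of the 10 genes, and a class name below means the cells that passed that gate. In the 21 class-by-library profiles with 20 or more cells most markers of each class were highest in that class, and none was at 0. The metastatic gate (Fosl1, Etv4, Hmga2, Twist1 and Sox9) took 1146 of the high-burden cells (37.8%). In the low-burden library it took 0 of 2473, a count compatible with shares up to 0.121% by a floor of 3 cells. A further 286 high-burden cells lay near the cut of the metastatic score. Another 4 metastatic genes outside the gate, Shox2, Col11a1, Tfap2a and 3300005D01Rik, were 3.05 to 4.16 higher on the log2 scale in these cells than in the other classed high-burden cells. PYMT, the transgene of the model from which Met-1 derives, did not separate them, with 55.5 to 77.0 CPM (UMIs scaled to a total of 1000000) in every high-burden class and 0 UMIs in the low-burden library. The study itself identified metastatic tumor cells by joint expression of PyMT and cyclin D1, the product of Ccnd1. Neither gene was used in the gate here. The epithelial genes Epcam (1.99 against 18.6 CPM) and Krt8 (2.47 against 36.3 CPM) were lower in metastatic than in other classed high-burden cells. Krt18 (67.4 against 43.4 CPM) and Vim (3325 against 1362 CPM) were higher. Xist (30.0 against 823 CPM), Ptprc (9.93 against 106 CPM) and Pecam1 (14.5 against 100 CPM) were lower. The cells that entered no class made up 23.3% of the low-burden and 23.4% of the high-burden cells.

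Promoter sequences are shown for the genes at which the metastatic cells stood highest against other classed cells and for which a sequence was at hand, namely both starts of Cdkn2a, its neighbor Cdkn2b, and Cdk4. They are RefSeq sequences of the GRCm38.p6 assembly, written 5′ to 3′ on the strand of the gene and ending just before the first annotated exon base. Capitals mark every match, on either strand, to 5 short motifs: E2F (TTTGGCGC or TTTCGCGC), CRE (TGACGTCA), AP-1 (TGACTCA or TGAGTCA), Sp1 (GGGCGG) and E-box (CACGTG).
Cdkn2a, Ink4a-type start, chr4:89282193-89282442, minus strand: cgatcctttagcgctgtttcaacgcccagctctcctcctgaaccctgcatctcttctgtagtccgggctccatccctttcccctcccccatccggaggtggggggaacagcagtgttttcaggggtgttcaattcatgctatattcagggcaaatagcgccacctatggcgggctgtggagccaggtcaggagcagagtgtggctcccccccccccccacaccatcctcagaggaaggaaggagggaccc
Cdkn2a, Arf-type start, chr4:89294654-89294869, minus strand: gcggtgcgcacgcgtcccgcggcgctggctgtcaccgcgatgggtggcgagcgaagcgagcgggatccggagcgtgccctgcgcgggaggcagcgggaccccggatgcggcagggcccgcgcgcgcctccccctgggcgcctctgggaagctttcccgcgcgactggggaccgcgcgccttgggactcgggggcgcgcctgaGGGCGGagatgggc
Cdkn2b, chr4:89311040-89311282, minus strand: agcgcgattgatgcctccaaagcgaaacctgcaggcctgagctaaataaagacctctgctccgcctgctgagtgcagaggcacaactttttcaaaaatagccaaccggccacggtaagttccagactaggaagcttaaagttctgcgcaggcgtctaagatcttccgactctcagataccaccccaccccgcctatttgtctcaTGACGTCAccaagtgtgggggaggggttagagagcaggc
Cdk4, chr10:127063285-127063533, plus strand: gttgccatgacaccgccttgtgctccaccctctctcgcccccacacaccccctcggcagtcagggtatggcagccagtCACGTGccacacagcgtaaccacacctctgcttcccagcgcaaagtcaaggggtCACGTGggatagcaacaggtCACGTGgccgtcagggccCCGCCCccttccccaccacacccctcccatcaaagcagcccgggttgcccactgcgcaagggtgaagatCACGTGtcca
The Cdk4 promoter held 4 E-box matches and 1 Sp1 match, the Cdkn2b promoter 1 CRE match that began 39 bases before the start, and the Arf-type promoter 2 Sp1 matches, of which 1 lies in the part shown. The Ink4a-type promoter held none of these letters. Among 32851 promoter windows of 250 bases, the E-box was found in 6.02%, the Sp1 motif in 32.7%, the CRE in 1.55%, the AP-1 motif in 4.46% and the E2F motif in 0.654%. Windows were at hand for 8 of the 10 genes (11 windows), and none held an E2F or AP-1 match. Ccnd1 and Ccnd2 had no window.

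Metastatic cells were set apart by a high level of Ccnd1, Cdkn2a, Cdk4 and Cdkn2b and a low level of Cdkn1a and Ccnd2. Ccnd1 stood at 778 CPM in metastatic cells against 219 CPM in the 1177 other classed cells of the same library (log2 ratio 1.83, interval 1.77 to 1.89). Cdkn2a stood at 651 against 74.6 CPM (3.13, 3.03 to 3.22), Cdk4 at 493 against 205 CPM (1.27, 1.21 to 1.33) and Cdkn2b at 66.5 against 15.4 CPM (2.11, 1.90 to 2.33). Cdkn1a, in contrast, stood at 79.7 against 342 CPM (-2.10, -2.17 to -2.03) and Ccnd2 at 38.1 against 132 CPM (-1.80, -1.91 to -1.69). The other 4 lay within 2-fold: Trp53 at 167 against 84.0 CPM (0.99), Cdk6 at 71.2 against 42.3 CPM (0.75), Ccnd3 at 78.6 against 88.4 CPM (-0.17), and Cdkn1b at 11.2 against 12.9 CPM (-0.21, -0.48 to 0.07). Of the 10 genes, 4 were thus at least 2-fold higher and 2 at least 2-fold lower, where 14.2% of the 12293 genes with 50 or more UMIs were higher and 19.9% lower by as much. At a minimum of 10 UMIs the background was 14.0% and 25.4% of 14646 genes, with the same counts for the 10 genes. The median log2 ratio was 0.87 over the 10 genes and 0.12 over all genes, and scaling by the median of ratios would lower every ratio by 0.13. The other side of this comparison was 64.9% monocytes or macrophages by cells. With the mixed and unclassed high-burden cells added to it, Cdk4 (0.95) and Cdkn2b (0.97) fell below 2-fold and 2 genes remained higher, with Ccnd1 at 1.26 and Cdkn2a at 1.40. The 4 metastatic genes outside the gate stood at 56.5% of their metastatic level in these mixed cells and at 94.4% in the unclassed cells. The part of such cells in the lower ratios was not tested.

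**Figure D1:**
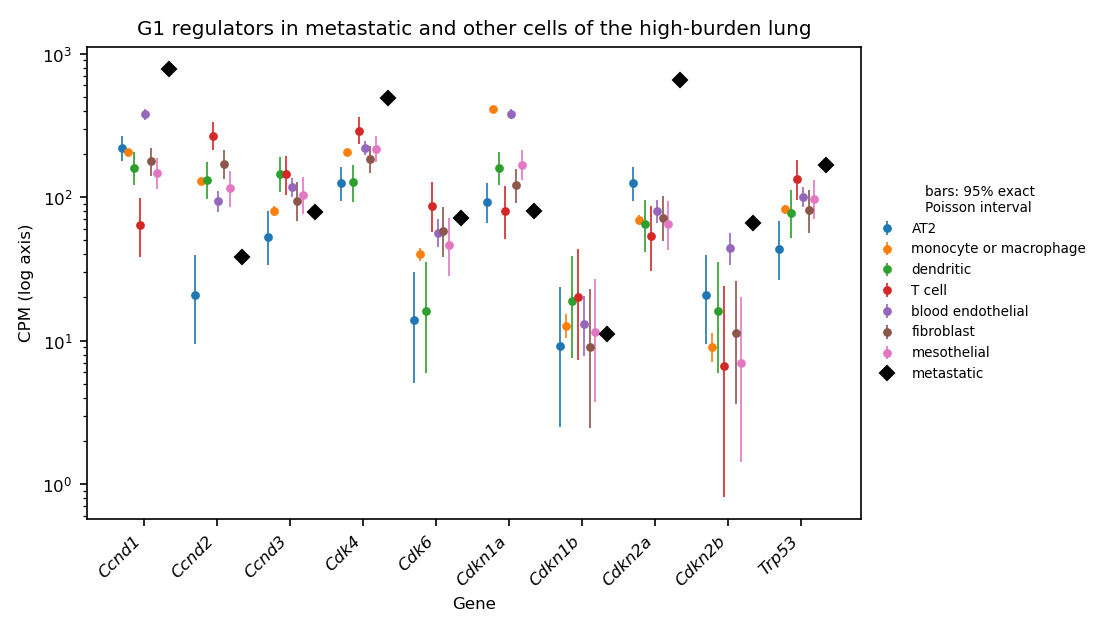
Level of each of the 10 genes in the classes of the high-burden library, in CPM on a log axis, with exact 95% Poisson bars. Metastatic cells lie above every other class for Ccnd1 (778), Cdk4 (493), Cdkn2a (651), Cdkn2b (66.5) and Trp53 (167), and at the low end for Cdkn1a (79.7) and Ccnd2 (38.1).

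Ccnd1 (cyclin D1, chr7:144929931-144939925, minus strand, GRCm38) was highest in metastatic cells and next in blood endothelium. Blood endothelial cells had 378 CPM (347 to 411) in the high-burden and 259 CPM (240 to 278) in the low-burden library, and metastatic cells had 778 CPM (768 to 788). These are the only 2 steps of the order at which the intervals of neighboring profiles separated, and the other 18 of 20 neighboring pairs overlapped. At low burden Ccnd1 had 1 UMI each in smooth muscle or pericytes (2.63 CPM) and AT1 cells (5.59 CPM). It was low in alveolar macrophages, at 9.63 CPM (5.13 to 16.5), and stood at 88.9 CPM in AT2 cells and 123 CPM in dendritic cells. Within the metastatic class the number of Ccnd1 UMIs per cell ran from 0 to 117 with a median of 17, and 6 of 1146 cells had none. To compare shares at one depth, each cell was thinned to 3000 UMIs. Shallower cells were left out, among them 152 of 378 alveolar macrophages, 132 of 467 blood endothelial cells and 70 of 430 fibroblasts at low burden but 0 cells of the high-burden classes, so that the thinned shares at low burden rest on the deeper cells. A Ccnd1 UMI was then found in 83.1% of metastatic cells (99.5% before thinning), 64.0% of endothelial and 21.2% of T cells of the same library, and 4.44% of low-burden fibroblasts. Median depths before thinning were 23241.5 UMIs in metastatic cells, 9067 in endothelial cells and 7565 in T cells.

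Ccnd2 (cyclin D2, known for its role in lymphocytes and ovary) had nearly the reverse order. It was highest in low-burden NK cells (524 CPM, 382 to 701), alveolar macrophages (466 CPM, 430 to 504) and T cells (383 CPM, 332 to 438), and lowest in high-burden AT2 cells (20.8 CPM) and metastatic and low-burden AT2 cells (38.1 and 36.5 CPM). No neighboring pair of Ccnd2 levels separated. Ccnd3 (cyclin D3, abundant in lymphocytes) varied least among the D cyclins, from 53.1 CPM in high-burden AT2 cells to 361 CPM in NK cells, with 78.6 CPM in metastatic cells.

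The D cyclin make-up of a class was compared as the share of each gene in the summed UMIs of the 3 genes, which needs no scaling between libraries. UMIs were not divided by transcript length, so shares were compared across classes and not as levels of one gene against another. Ccnd1 made up 87.0% (86.5 to 87.4) of 25690 D cyclin UMIs in metastatic cells, with Ccnd3 at 8.79% and Ccnd2 at 4.26%. No other profile reached this share: the next were AT2 cells at high burden, with 74.8% (66.3 to 82.1), and blood endothelium at high burden, with 64.2% (60.9 to 67.4). Ccnd2 took the largest share in low-burden alveolar macrophages (84.2%, 81.4 to 86.7), AT1 cells (70.3%), smooth muscle or pericytes (67.4%) and T cells (62.8%), where Ccnd1 held 1.74%, 1.56%, 0.709% and 2.13%. Dendritic cells divided their D cyclin UMIs almost evenly, with 34.4% Ccnd1, 30.6% Ccnd2 and 35.0% Ccnd3 at low burden.

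In all 7 classes with 20 or more cells in both libraries the Ccnd1 share was higher at high burden, though not always beyond the counting error. It went from 5.45% (3.78 to 7.56) to 40.1% (33.2 to 47.3) in fibroblasts, from 47.9% (38.5 to 57.3) to 74.8% in AT2 cells, from 46.8% (44.2 to 49.3) to 64.2% in blood endothelium and from 2.13% to 13.4% in T cells, without overlap of the intervals. In monocytes or macrophages (35.1% to 49.5%), mesothelial cells (20.0% to 40.3%) and dendritic cells (34.4% to 36.4%) the step was smaller or rested on fewer UMIs. Metastatic cells, at 87.0% Ccnd1, were present in the second library and not detected in the first. With the carry-over expected from them subtracted, as described further on, the share at high burden was 72.0% (62.3 to 80.4) in AT2 cells, 61.6% (58.0 to 65.0) in blood endothelium and 13.4% (8.01 to 20.7) in fibroblasts, intervals that lay above those at low burden. It was 41.8% in monocytes or macrophages and 6.65% (3.03 to 12.4) in T cells, and lower than at low burden in dendritic cells (25.0%) and mesothelial cells (12.3%). These intervals take the carry-over as known, although it has a counting interval of its own. At the upper bound of that interval, carried Ccnd1 in fibroblasts was 244 CPM, above the 177 CPM measured, so nothing need be left there. In AT2 cells it was 122 of 219 CPM and in blood endothelium 88.2 of 378 CPM.

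**Figure D2:**
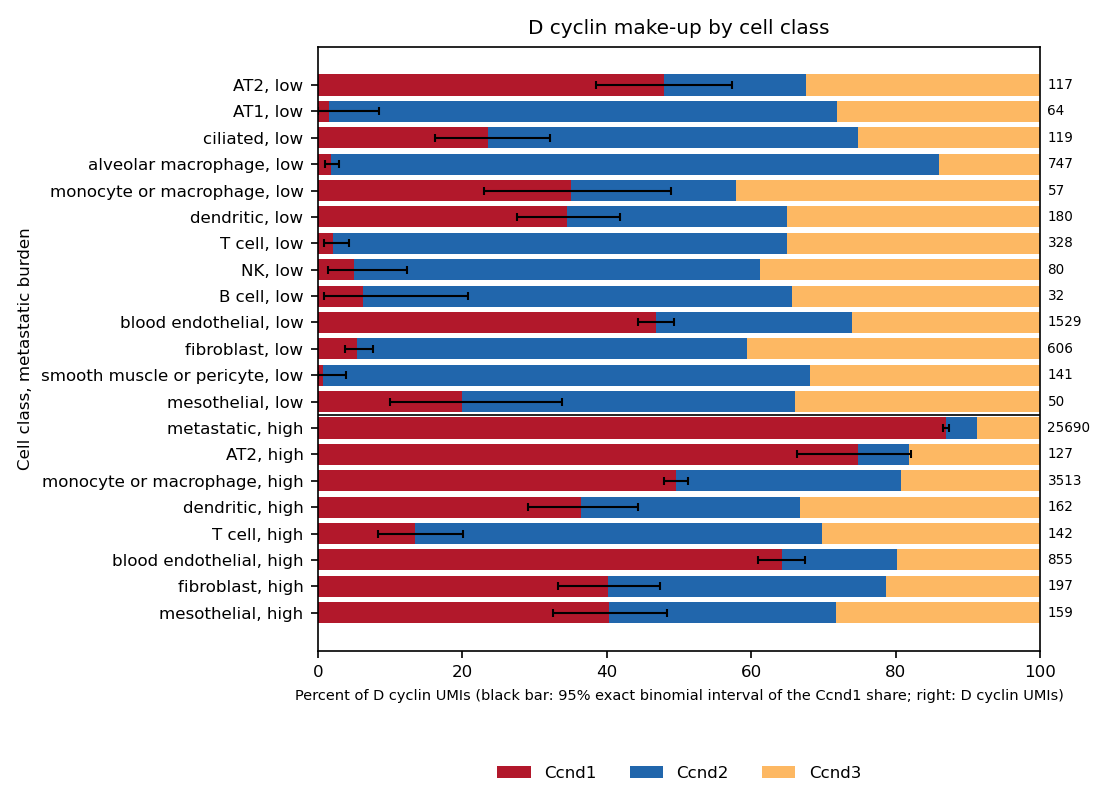
Shares of Ccnd1, Ccnd2 and Ccnd3 in the D cyclin UMIs of each class and library, in percent. Black bars give the exact 95% binomial interval of the Ccnd1 share and the numbers at the right the D cyclin UMIs, with Ccnd1 at 87.0% in metastatic cells and at 1.74% in low-burden alveolar macrophages, where Ccnd2 takes 84.2%.

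Cdk4 (chr10:127063534-127067920, plus strand), the kinase partner of D cyclins in most tissues, was highest in metastatic cells (493 CPM, 485 to 502) and then in high-burden T cells (291 CPM, 233 to 359). The remaining profiles ran down to 62.2 CPM in low-burden alveolar macrophages with no further gap between neighbors. A Cdk4 UMI was found in 74.3% of thinned metastatic cells, 51.5% of thinned high-burden T cells and 17.3% of thinned alveolar macrophages. Cdk6, its close relative with a known role in blood cells, reached 87.0 CPM (56.8 to 127) in high-burden T cells, 76.3 CPM in alveolar macrophages and 71.2 CPM in metastatic cells, levels that overlap, and was lowest in ciliated cells (8.71 CPM, 3 UMIs). Cdk4 made up 87.4% (86.9 to 87.9) of the Cdk4 and Cdk6 UMIs of metastatic cells. Alveolar macrophages were the only profile in which Cdk4 held the smaller share, 44.9% (37.7 to 52.3), an interval that includes equal shares.

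The Cip/Kip inhibitor Cdkn1a (p21, a p53 target that also responds to stress) was lower in metastatic cells than in endothelium and phagocytes. It stood at 413 CPM (389 to 437) in low-burden and 379.6 CPM (349 to 413) in high-burden blood endothelium and at 408 CPM (395 to 422) in high-burden monocytes or macrophages. A gap followed, and the next level was 224 CPM (169 to 290) in low-burden monocytes or macrophages, with metastatic cells at 79.7 CPM (76.5 to 83.1). The metastatic level ranked 14 of 21 from the top and overlapped high-burden T cells (80.3 CPM, 51.5 to 119) and AT2 cells (92.3 CPM, 65.9 to 126). Low-burden AT2 cells (49.2 CPM), T cells (29.7 CPM) and NK cells (11.6 CPM) were lower still. A Cdkn1a UMI was found in 20.2% of thinned metastatic cells, against 59.0% of monocytes or macrophages and 55.2% of endothelial cells of that library. The summed level of 12 dissociation and stress genes was 4146 CPM in metastatic cells, 4824 CPM in high-burden monocytes or macrophages and 6245 CPM in high-burden endothelium, and its part in the Cdkn1a levels was not tested. Cdkn1b (p27, a marker of resting cells that is controlled largely at the protein level) was sparse throughout. It ran from 8.98 CPM in high-burden fibroblasts (4 UMIs) to 83.8 CPM in low-burden AT1 cells (15 UMIs), and stood at 11.2 CPM in metastatic cells. No neighboring pair of Cdkn1b levels separated.

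Cdkn2a (chr4:89274471-89294653, minus strand) showed the widest contrast. It was detected in all 1146 metastatic cells, with 1 to 79 UMIs and a median of 15, and its level of 651 CPM (642 to 661) was separated from all other profiles. In the low-burden library no Cdkn2a UMI was found in AT2, AT1, ciliated or mesothelial cells, which allows up to 5.86, 20.6, 10.7 and 24.7 CPM. Low-burden blood endothelium led with 66.2 CPM (57.0 to 76.6). At equal depth 80.7% of metastatic cells, 11.3% of low-burden endothelial cells and 1.11% of low-burden fibroblasts had a Cdkn2a UMI. The Ink4a-type transcript begins at an exon spanning chr4:89281986-89282192 and the Arf-type transcript at one spanning chr4:89294334-89294653. Both then use the exon chr4:89276645-89276985 and overlapping last exons, so the counts do not tell p16 from Arf messages. Ccnd1 and Cdkn2a were not divided among metastatic cells: after thinning both were seen in 67.1% of the cells, where the product of their separate shares is also 67.1%.

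Cdkn2b (p15, chr4:89306299-89311039, minus strand), which lies next to Cdkn2a, had another order. Low-burden AT1 cells, the thin cells of the alveolar wall, led with 190.0 CPM (132 to 266) from 34 UMIs in 38 cells, of which 60.5% had a UMI. Low-burden blood endothelium (69.5 CPM, 60.0 to 80.1) and metastatic cells (66.5 CPM, 63.5 to 69.5) overlapped, and high-burden endothelium followed at 44.0 CPM (33.9 to 56.2), separated from metastatic cells. Elsewhere Cdkn2b did not pass 34.9 CPM. Trp53 (chr11:69580359-69591873, plus strand) was highest in metastatic cells at 167 CPM (163 to 172), but the interval overlapped that of low-burden NK cells (139.8 CPM, 72.2 to 244), and T cells had 137 CPM in the low-burden and 134 CPM in the high-burden library. Ciliated and AT2 cells of the low-burden lung were lowest, with 23.2 and 27.0 CPM.

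**Figure D3:**
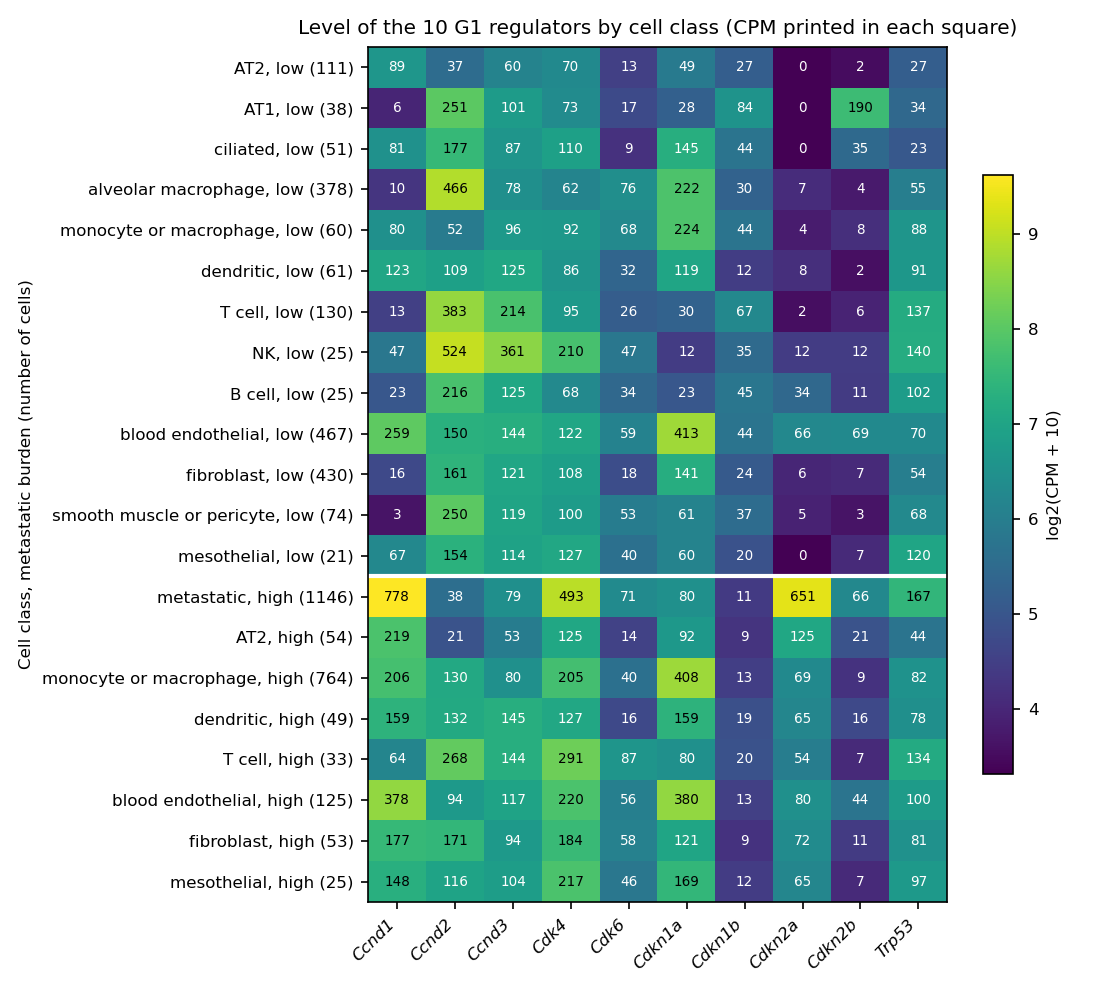
Level of the 10 genes in the 21 class-by-library profiles with 20 or more cells. Each square prints the CPM and is colored by log2 of that value plus 10, and the metastatic row stands out at Ccnd1 (778), Cdk4 (493) and Cdkn2a (651), with Ccnd2 brightest in alveolar macrophages (466) and NK cells (524).

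Within low-burden endothelium Cdkn2a and Cdkn2b were found together in a minority of cells. Of 467 cells, 51 had UMIs of both (10.9%, against 5.20% for the product of the separate shares), and Cdkn2b was seen in 56.7% of cells with Cdkn2a and 19.9% of cells without. Cells were then divided by short lists of genes known from the 2 kinds of lung capillary cell, lists that were chosen after these values were seen. The 81 cells that followed the aerocyte list (Car4, Ednrb, Apln, Tbx2 and Fibin) had 292 CPM of Cdkn2a (234 to 361), 256 CPM of Cdkn2b (201 to 320) and 1002 CPM of Cdkn1a (891 to 1122). The 296 cells that followed the general capillary list (Gpihbp1, Aplnr, Plvap, Cd93 and Ptprb) had 28.7 CPM (21.5 to 37.7), 33.7 CPM (25.8 to 43.3) and 326 CPM (300 to 353). Ccnd1 did not follow this division, with 279 CPM (222 to 346) in the aerocyte cells and 259 CPM (236 to 283) in the general capillary cells. At high burden too few cells followed the aerocyte list to be given, and the 88 general capillary cells had 74.2 CPM of Cdkn2a and 30.4 CPM of Cdkn2b.

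The question of the study, how lung cells change from low to high metastatic burden, was then addressed for the 10 genes in the 7 classes with 20 or more cells in each library. Of 49 gene-by-class values with 50 or more UMIs, 11 were at least 2-fold higher and 3 at least 2-fold lower at high burden. The UMIs are summed over both libraries, so a gene could pass the minimum through the library in which it was high, and 9 of the 11 had under 50 UMIs in the low-burden library alone. The counts are therefore a description only. By class, 4 genes were higher and 1 lower of 10 in monocytes or macrophages (14.2% and 12.2% of all genes tested there), 2 and 0 of 5 in AT2 cells (4.87% and 3.12%), 2 and 1 of 8 in fibroblasts (4.03% and 10.7%), 2 and 0 of 6 in mesothelial cells (9.43% and 5.77%), 1 and 0 of 4 in T cells (10.4% and 8.07%), 0 and 1 of 10 in blood endothelium (3.55% and 3.75%) and 0 and 0 of 6 in dendritic cells (2.79% and 5.26%). These counts rest on 4 to 10 genes in a class. Depth, mouse and time differ between the 2 libraries together with burden.

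**Figure D4:**
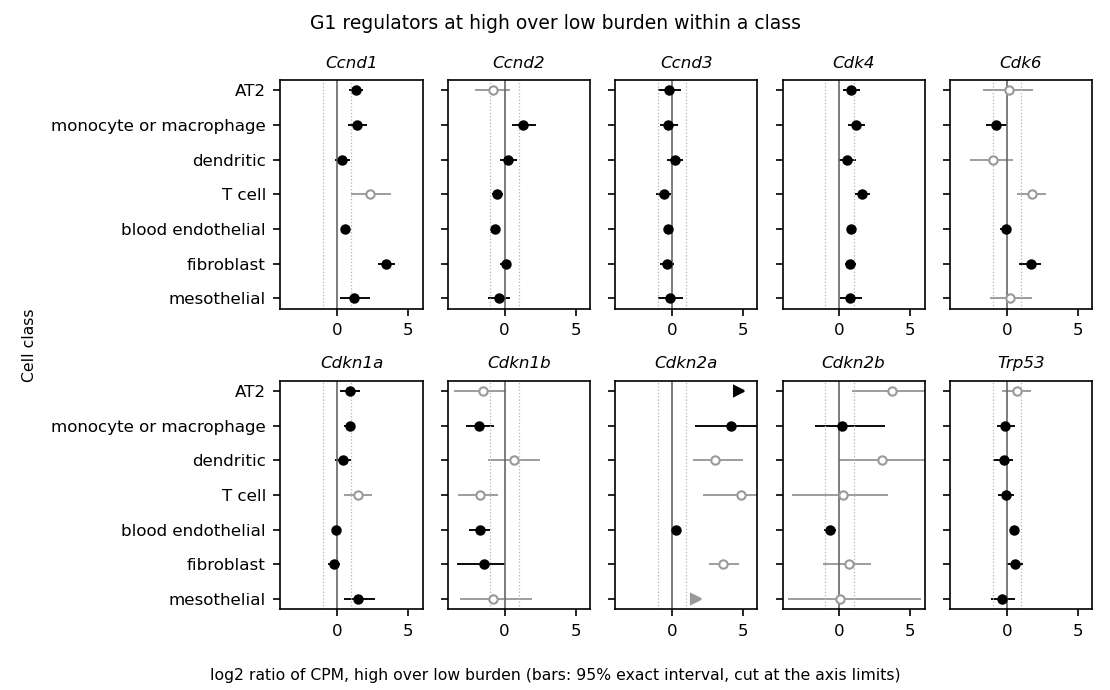
Log2 ratio of the level at high over low burden for the 10 genes in 7 classes, with exact 95% bars. Filled black points have 50 or more UMIs, open grey points fewer, triangles are lower bounds against a level of 0, and dotted lines mark 2-fold. Cdk4 lies right of 0 in all 7 classes (0.57 to 1.62) and Cdkn1b left of 0 in 6 of them, with dendritic cells at 0.66.

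As measured, Ccnd1 was higher at high burden in every one of these classes, but with the expected carry-over subtracted it was lower in mesothelial cells (28.3 CPM left, against 66.9 CPM at low burden) and in dendritic cells (89.2 against 123 CPM). In fibroblasts it went from 16.3 to 177 CPM (log2 3.44, 2.84 to 4.08), in AT2 cells from 88.9 to 219 CPM (1.30, 0.81 to 1.80), in monocytes or macrophages from 79.9 to 206 CPM (1.37, 0.74 to 2.08) and in blood endothelium from 259 to 378 CPM (0.54, 0.38 to 0.71). Mesothelial cells (1.14), T cells (2.29, from 7 and 19 UMIs) and dendritic cells (0.37, -0.17 to 0.90) completed the set. The monocyte or macrophage class is made of different cells in the 2 libraries: in a clustering of all cells made without the 10 genes, 46 of 60 low-burden cells were in a cluster that held 90 of 764 high-burden cells, and 410 high-burden cells were in a cluster with no low-burden cell of the class. Within the shared cluster, Ccnd1 differed by 0.09 (-0.61 to 0.85) and Cdk4 by 1.04 (0.32 to 1.85). The largest clusters of fibroblasts and of endothelial cells also differed between the libraries. The shared fibroblast cluster (178 low-burden and 12 high-burden cells) was too thin for a value, the shared endothelial cluster (210 and 25 cells) gave 0.51 (0.08 to 0.92) for Ccnd1, and the shared AT2 cluster (109 and 46 cells) gave 1.08 (0.55 to 1.62).

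Cdk4 was likewise higher in all 7 classes, by 1.62 (1.11 to 2.15) in T cells, from 94.7 to 291 CPM, by 1.16 (0.57 to 1.82) in monocytes or macrophages, from 91.8 to 205 CPM, by 0.85 (0.62 to 1.07) in blood endothelium and by 0.57 to 0.83 in the other 4. After subtraction of the carry-over expected from metastatic cells, it was no longer higher in fibroblasts (-0.17) and dendritic cells (-0.05). The G2/M list, whose 16 genes are made by dividing cells, was also higher at high burden in these classes. No carry-over was subtracted from this list, which stood at 2220.5 CPM in metastatic cells. Its summed level was 821 CPM in low-burden and 2229 CPM in high-burden T cells, 24.0 and 1112 CPM in monocytes or macrophages, and 14.8 and 769.6 CPM in blood endothelium, and its part in the Cdk4 levels was not tested. Cdk6 was 1.68 (0.89 to 2.44) higher in fibroblasts, from 18.3 to 58.4 CPM, and did not differ by 2-fold in the other 2 classes in which it had 50 UMIs.

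Cdkn1b was lower at high burden in 6 of 7 classes, past 2-fold in 5 of them, of which 3 had 50 or more UMIs. The log2 difference was -1.74 (-2.53 to -1.04) in blood endothelium, from 43.8 to 13.1 CPM, -1.79 (-2.69 to -0.75) in monocytes or macrophages, from 43.9 to 12.7 CPM, and -1.43 (-3.36 to 0.02) in fibroblasts, from 24.2 to 8.98 CPM. AT2 cells (-1.55) and T cells (-1.74) had under 50 UMIs, as had dendritic cells, in which the sign was opposite (0.66, -1.14 to 2.51). The Cdkn1b values of blood endothelium, monocytes or macrophages and fibroblasts were all 3 of the gene-by-class values called lower. That count fell to 1 when cells were thinned and to 1 within shared clusters. Some values had too few UMIs under these alternatives, and the counts do not tell such a loss from a smaller difference. In T cells Cdkn1b went from 66.8 to 20.1 CPM while Ccnd2 (-0.51, -0.91 to -0.14) and Ccnd3 (-0.57, -1.11 to -0.05) were also lower. Ccnd2 differed in direction between classes. It was higher in monocytes or macrophages, at 51.9 CPM in the low-burden and 130 CPM in the high-burden library (1.32, 0.54 to 2.23), and lower in blood endothelium, at 150.2 and 93.5 CPM (-0.68, -0.97 to -0.40), though within the shared endothelial cluster the sign was opposite (0.25, -0.41 to 0.86). Cdkn1a was 1.49 higher in mesothelial cells (9 and 73 UMIs) and 0.87 (0.49 to 1.28) higher in monocytes or macrophages, a value of 0.39 (-0.07 to 0.88) within their shared cluster. The stress list stood at 13805 CPM in the low-burden and 4824 CPM in the high-burden cells of that class, and its part was not tested. Cdkn2b was lower in blood endothelium (-0.66, -1.09 to -0.24), but within the general capillary cells it was almost level, at 33.7 CPM (25.8 to 43.3) in the low-burden and 30.4 CPM (21.1 to 42.5) in the high-burden library, the aerocyte cells, at 256 CPM, being too few at high burden. In that class Trp53 was higher (0.52, 0.20 to 0.84) but not within the shared cluster (-0.22, -1.12 to 0.59).

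Cdkn2a was detected in every high-burden class. In AT2 cells it had 0 UMIs at low and 54 UMIs (125 CPM) at high burden, at least 26.1-fold higher against a floor of 3 UMIs, but 1 cell held 35.2% of those UMIs. In monocytes or macrophages 1 UMI (3.99 CPM) stood against 585 UMIs (69.3 CPM), a log2 ratio of 4.12 (1.63 to 9.42), and T cells, fibroblasts and dendritic cells gave 4.85, 3.60 and 3.02. Blood endothelium, which had Cdkn2a already at low burden, differed by 0.27 (-0.08 to 0.61), and by 1.14 (0.88 to 1.40) when classes were taken from Leiden clusters. Within its general capillary cells Cdkn2a went from 28.7 CPM (21.5 to 37.7) to 74.2 CPM (59.1 to 92.0), again without a value at high burden for the aerocyte cells, which had 292 CPM at low burden. With the expected carry-over subtracted, the level left at high burden was 84.6 CPM in AT2 cells, 17.5 CPM in monocytes or macrophages, 24.5 CPM in T cells, 35.1 CPM in blood endothelium and 6.30 CPM in dendritic cells, and nothing was left in fibroblasts and mesothelial cells. The expected carry-over has a counting interval of its own. At its upper bound, carried Cdkn2a was 102 of 125 CPM in AT2 cells, 63.1 of 69.3 CPM in monocytes or macrophages and 73.8 of 79.8 CPM in blood endothelium. In T cells (105 against 53.5 CPM) and dendritic cells (136 against 64.6 CPM) it passed the level measured.

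To show how far metastatic messages were found outside the metastatic class, the levels of the 10 genes in other classes were set beside those of 4 metastatic genes used in no gate (Shox2, Tfap2a, Col11a1 and 3300005D01Rik), which had 4 UMIs in the whole low-burden library. Their summed level in other classes, as a percentage of that in metastatic cells, was 6.14% (1.67 to 15.7) in AT2 cells, 7.96% (6.47 to 9.69) in monocytes or macrophages, 6.86% (3.84 to 11.3) in blood endothelium and 17.9% (9.26 to 31.3) in fibroblasts. Cdkn2a stood at 8.22% to 19.1% of its metastatic level in these and the other classes. It lay within the interval of the list in dendritic cells (9.92%), T cells (8.22%), fibroblasts (11.0%) and mesothelial cells (9.94%), and above it in AT2 cells (19.1%), monocytes or macrophages (10.6%) and blood endothelium (12.3%). Ccnd1 was above the interval of the list in AT2 cells (28.2%), monocytes or macrophages (26.5%) and blood endothelium (48.5%) and within it in T cells (8.17%), dendritic cells (20.4%), mesothelial cells (19.0%) and fibroblasts (22.8%). In fibroblasts, the class with the largest Ccnd1 difference, the share of the list corresponds to 139.5 CPM of carried Ccnd1, out of 177 CPM measured. With the expected carry-over subtracted, 5 in place of 11 gene-by-class values stayed at least 2-fold higher at high burden, Ccnd1 in monocytes or macrophages fell to 0.85 and in AT2 cells to 0.95, and Cdkn2a in blood endothelium turned to -0.92. Of the 44 ratios of high over low burden recomputed in this way, 39 kept their sign. PYMT, also listed as a metastatic gene outside the gate, was left out of the 4 genes. In the other classes it stood at 86.5% (mesothelial cells) to 120% (T cells) of its metastatic level, far above the share of the 4 genes. The expected carry-over therefore depends on which genes are used.

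**Figure D5:**
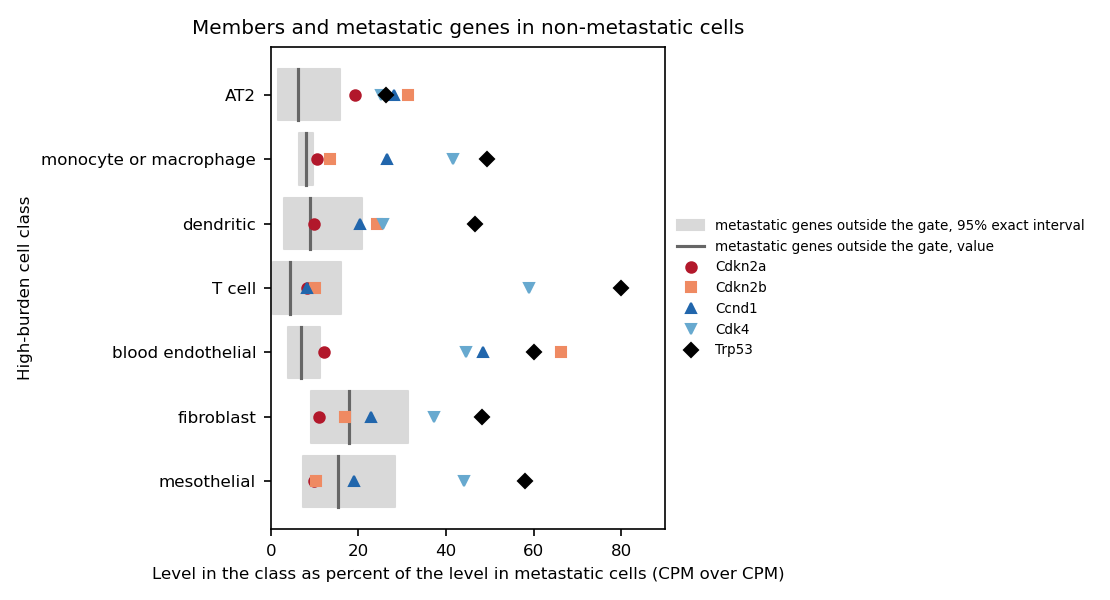
Level of Cdkn2a, Cdkn2b, Ccnd1, Cdk4 and Trp53 in each other class of the high-burden library, in percent of the level in metastatic cells, beside the grey band of the 4 metastatic genes used in no gate. Cdkn2a lies in or close to the band (8.22% to 19.1%), whereas Ccnd1 in blood endothelium lies at 48.5% against a band of 3.84% to 11.3%.

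Among metastatic cells, the 576 cells with a high S or G2/M score were compared with 429 cells with a low score, lists that hold none of the 10 genes, with 141 cells between the cuts left out. Ccnd1 was almost level, at 744 CPM in cycling and 819 CPM in quiet cells (-0.14, -0.18 to -0.10). Cdkn2b was lower in cycling cells, at 43.2 against 106 CPM (-1.29, -1.44 to -1.15), as was Ccnd2, at 26.8 against 60.5 CPM (-1.17, -1.36 to -0.99). Cdkn2a stood at 536 against 878 CPM (-0.71, -0.76 to -0.67), so that the Ink4 genes were both lower in cycling cells. Cdk4 (0.39, 0.33 to 0.44) and Ccnd3 (0.56, 0.41 to 0.71) were higher, as, by less, were Cdk6 (0.19, 0.04 to 0.34) and Trp53 (0.15, 0.06 to 0.25). Cdkn1b was lower (-0.43, -0.78 to -0.08), and Cdkn1a did not differ beyond counting error (0.02, -0.12 to 0.15). Of the 10 genes 2 were at least 2-fold lower and 0 at least 2-fold higher, against 3.93% and 6.06% of 10891 genes. Cycling cells had a median of 28917 UMIs and quiet cells 17515, and the part of depth was not tested by more than thinning, after which Cdkn2b was still 2-fold lower (-1.22) and Ccnd2 was not (-0.91). Of the partners of the pathway, Ccne2 (cyclin E2) stood at 3.26, the pocket protein gene Rbl1 at 1.91, the Ink4 gene Cdkn2d at 1.53, Cks1b at 1.45, E2f1 at 1.23, Rb1 at -1.10 and E2f2 at -1.23.

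Other genes of the pathway gave the following counts in metastatic against other classed cells. For comparison, 14.2% of all genes with 50 or more UMIs were at least 2-fold higher and 19.9% at least 2-fold lower. The counts of the G1/S and p53 lists lie near these shares and are a description only. Of 20 G1/S partners, 3 were at least 2-fold higher, namely Cks1b, a Cdk-binding protein (554 against 181 CPM, 1.61), the Ink4 gene Cdkn2c (147 against 52.2 CPM, 1.49) and E2f5 (1.14), and 2 lower, the Cip/Kip gene Cdkn1c (2.19 against 13.7 CPM, -2.64) and E2f2 (-1.24), followed by Rbl2 (-0.96). The list median was 0.14, close to that of all genes (0.12). Cyclin E1 (Ccne1, -0.08) and Cdk2 (0.16), which act after the D cyclins, and Rb1 (-0.53) lay within 2-fold. Of 19 genes regulating or regulated by p53 that had 50 UMIs, 4 were higher (Phlda3 1.59, Rrm2b 1.55, Gtse1 1.23 and Perp 1.08) and 5 lower (Fas -2.65, Pmaip1 -1.92, Btg2 -1.38, Plk2 -1.31 and Trp53inp1 -1.03), with a median of -0.16. Mdm2, the ubiquitin ligase that degrades p53, was at 32.0 against 40.8 CPM (-0.35). Gtse1 is itself a gene of the G2 phase. Of 16 outputs of mitogen signaling, 4 were higher and 0 lower, but Fosl1 (3.53) and Etv4 (3.16) were used by the gate. Of the other 14, 2 were higher, where 14.2% of all genes were, namely Spry2 (38.1 against 5.90 CPM, 2.69), a feedback inhibitor of receptor signaling, and Phlda1 (892 against 229 CPM, 1.96). The median was 0.38, and the lowest were Fosl2 (-0.48), Fos (-0.25) and Junb (-0.17). Of later phases, 1 of 16 S phase genes and 6 of 16 G2/M genes were higher and 0 lower.

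Genes within 500 kb were read to see whether neighbors shared the levels of Cdkn2a and Ccnd1. Of all genes with 50 or more UMIs, 14.2% were at least 2-fold higher in metastatic cells and 19.9% lower. This minimum sums the UMIs of both sides, so a gene could pass it through the side in which it was high. Gm12603 did so, with 1648 metastatic and 41 other UMIs, and the counts below are a description only. Around Cdkn2a, 3 of 26 genes had 50 UMIs and all 3 were higher in metastatic cells: Gm12603, a long noncoding RNA 224 kb away, at 57.4 against 3.23 CPM (4.15, 3.71 to 4.64) with 0 UMIs in the low-burden library, Mtap, a methionine salvage enzyme 137 kb away, at 145 against 30.8 CPM (2.24, 2.09 to 2.39), and Cdkn2b itself (2.11). In low-burden endothelium, which also had Cdkn2a and Cdkn2b, Gm12603 had 0 UMIs and Mtap 22.8 CPM. Around Ccnd1, 7 of 18 genes had 50 UMIs, of which 3 were at least 2-fold higher, namely Cttn (cortactin, 1.76), Mrgprf (1.72) and Ano1 (1.45), and 1 lower, Tpcn2 (-1.59). Ppfia1 (0.31), Oraov1 (-0.08) and Fadd (-0.55), which lie among them, did not differ by 2-fold.

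The genes whose level followed each regulator most closely over the 21 profiles were read as a description, since profiles share their library and depth. Cdkn2a was most like Cst6 (Pearson r = 0.89), Mtap (0.88) and Chmp6 (0.87), and Ccnd1 most like Chmp6 (0.82), Baiap2 (0.77) and Cdkn2a (0.75). Cdk4 went with Adh5 (0.92), Mrps7 (0.90) and Odc1 (0.89) and Trp53 with Npm1 (0.89), Nono (0.89) and Rpl15 (0.88). Cdkn2b was most like Tead4 (0.91), Commd2 (0.84) and Snhg20 (0.82). For the genes that were lower in metastatic than in other classed cells, the leaders were Cmtm3 (0.81), Soga1 (0.79) and Hlx (0.78) for Cdkn1a and 2510039O18Rik (0.80), Mical1 (0.77) and Whsc1l1 (0.76) for Ccnd2. Ccnd3 was most like Rnf138 (0.83), Whsc1l1 (0.82) and Cactin (0.82), Cdk6 like Naa50 (0.80), Tma16 (0.77) and Slc35f6 (0.75), and Cdkn1b like Gpbp1l1 (0.84), Ccdc28a (0.83) and Tlk1 (0.81).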

How the data were processed

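Lungs of 1 low-burden and 1 high-burden mouse were profiled by droplet-based scRNA-seq. Per the labels and the study's methods, the authors processed reads with Cell Ranger 2.0.2 on mm10 with PYMT appended, and the deposited values are raw UMI counts per gene and cell. Whether these precede the aggregation the methods name is not stated. The high-burden barcodes equal in number those of the methods, and the low-burden ones are somewhat more.

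Here, cells with 1000 to 7000 genes and at most 10% mitochondrial UMIs were kept. For each class, markers (log1p of UMIs per 10000, scaled to the 99.5th percentile) were averaged to a score. A cell entered the class with the top score if it was 0.2 or more and the runner-up at most 0.5 of it. Of 151 markers, 5 are not among the listed genes. Scores were set after their distributions were seen, and differences from the study may come from rebuilt names. Doublets were kept, because the caller marked under 0.5% of cells. UMIs were summed per class and library. Intervals are exact Poisson (levels), conditional binomial (ratios) or Clopper-Pearson (shares). Genes were compared with 50 or more UMIs and called at 2-fold. Expected carry-over is the metastatic level times the share of the 4-gene list, which leaves out PYMT. Cycling cells had an S or G2/M score of 0.3 or more, and quiet cells both under 0.15. Of each list, the 3 highest and lowest genes were named by rule, as were neighbors with 50 UMIs and the 3 genes most like each member, and further genes were named after their values were seen. Members and lists were chosen with earlier results of these data known. Coordinates are from GENCODE M21. Python 3.11.15, numpy 2.4.6, scipy 1.17.1, pandas 2.3.3, scanpy 1.11.5 (Leiden clusters, Scrublet) and matplotlib 3.10.9 were used, and scripts were tested on simulated data.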

Additional observations from a re-analysis of the deposited data

Results flagged for a closer look

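Ccnd2 differed in opposite directions in 2 classes between low and high burden, with a log2 ratio of 1.32 in monocytes or macrophages and -0.68 in blood endothelium, a difference of 2.00. The difference itself was not tested, and within the clusters that the 2 libraries share, blood endothelium gave 0.25 (-0.41 to 0.86) and the monocyte class had too few UMIs for a value.

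Cells outside every class entered no class level and no comparison between burdens, and the comparison of metastatic cells only as an alternative. Among mixed cells, which passed on the markers of more than one class, several regulators were higher in the high-burden library: Ccnd1 at 442 against 95.5 CPM (log2 2.21), Cdk4 at 312 against 94 CPM (1.73), Cdkn2a at 411 against 15.4 CPM (4.73), Cdkn2b at 49.8 against 14.2 CPM (1.81) and Trp53 at 117 against 55.9 CPM (1.06). Among unclassed cells the differences were larger, with Ccnd1 at 515 against 48.2 CPM (3.42), Cdk4 at 350.0 against 53.9 CPM (2.70), Cdk6 at 47.8 against 8.50 CPM (2.49), Cdkn2a at 640 against 14.2 CPM (5.50) and Cdkn2b at 81.8 against 5.67 CPM (3.85). The list of 4 metastatic genes used in no gate stood at 56.5% of its metastatic level in mixed and 94.4% in unclassed high-burden cells, and its part in these levels was not tested.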

How the results depend on the processing

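Over 14 alternatives, 4454 values of 350 further results could be recomputed, 4222 moving by less than their counting interval and 232 by more. Every called value among them kept its direction. A result with too few UMIs under an alternative was not counted. One such was Ccnd1 in mesothelial cells with carry-over subtracted. It was called higher as measured but then stood lower, at 28.3 CPM against 66.9 CPM at low burden. The log2 ratio of Ccnd1 in metastatic cells, 1.83, was 1.66 with Leiden classes, 1.74 with a metastatic gate on 4 other genes, 1.70 with median-of-ratios scaling, 2.39 with carry-over subtracted and 1.26 against all other high-burden cells. That of Cdkn2a, 3.13, was 2.71, 2.99, 5.38 and 1.40 with Leiden classes, median-of-ratios scaling, carry-over subtracted and all other cells, 3.34 with cells thinned to 3000 UMIs and 2.96 with a runner-up of up to 0.7. The Ccnd1 share of D cyclin UMIs in metastatic cells, 87.0%, was 86.4% with Leiden classes, 86.4% when thinned and 86.1% with the other gate. The count of genes higher in metastatic cells, 4, was 2 against all other cells, and that of genes lower in cycling cells, 2, was 1 when thinned. The 11 gene-by-class values higher at high burden became 6 when thinned, 19 with a minimum of 10 UMIs, 5 with carry-over subtracted and 6 within shared clusters, and the 3 lower ones became 1, 5 and 1 when thinned, with 10 UMIs and within shared clusters. The runner-up limit, the shared clusters and the comparison with all other cells were added after seeing the data. Some results had too few UMIs for a value under an alternative, 82 of them when thinned and 26 under the stricter gate on the score. Scrublet marked 0.364% of low-burden and 0.231% of high-burden cells, too few to have worked, so doublets limit every class. No paired analysis was possible because each group has 1 library. Classes under 62 cells limit the AT1, NK, B cell, ciliated, dendritic, mesothelial and monocyte or macrophage values at low burden and the AT2, fibroblast, dendritic, T cell and mesothelial values at high burden.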
